A study of Homo sapiens with 6 samples.

Results

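The genes described here were 42 genes of mitosis and the G2/M phase of the cell cycle, taken as a readout of proliferation and chosen by symbol, with the isoforms of each gene summed to a gene total. They were 42 of the 26334 gene symbols quantified, and each of the 42 was among the 14217 genes that passed the filter on low counts and were tested. RNA was sequenced from PC-9 cells, an established human lung adenocarcinoma line with an activating EGFR mutation, and 3 conditions with 2 libraries each were compared. Control cells carried the shRNA shScr, and RBM10-knockdown (RBM10 KD) cells carried shRBM10#1 or shRBM10#2, which target RBM10, an RNA-binding regulator of splicing. The labels give all 6 libraries the same serum-containing RPMI medium and no treatment, and they name shScr cells as the control where the study's methods name parental PC-9 cells. No label says whether the libraries of a condition came from separate cultures, so p-values measure the spread between these libraries, which may be technical.

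Genes of this set are transcribed mainly in late S, G2 and M phase and encode the machinery that condenses, aligns, separates and partitions chromosomes. Their promoters are repressed in resting cells by the DREAM complex and switched on in cycling cells by B-MYB with the MuvB core and by FOXM1, and many of them hold a cell cycle genes homology region (CHR), a short element bound by MuvB near the start site. In a growing culture their summed RNA follows the share of cells in G2 and M, which is why they serve as proliferation markers.

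The targeted gene was measured before the set. RBM10 was at 83.2 and 86.2 CPM (counts scaled to the size of the library with TMM factors) in shScr, 59.8 and 56.4 in shRBM10#1, and 27.2 and 26.9 in shRBM10#2. It fell with both, with a log2 fold change (FC) of -0.54 for shRBM10#1 (quasi-likelihood test of edgeR, Benjamini-Hochberg FDR = 0.000228) and -1.65 for shRBM10#2 (FDR = 5.1e-08), and between shRBM10#2 and shRBM10#1 the log2 FC was -1.11 (FDR = 3.65e-06). Library totals were 31953729 to 37557507 expected counts. All 9 lung adenocarcinoma epithelial markers were detected in every library, with a summed level of 26100 and 27900 TPM (RSEM's share of transcripts after division by effective length) in shScr, 29500 and 27000 in shRBM10#1, and 23300 and 24200 in shRBM10#2. Of these 9, 1 rose and 1 fell with shRBM10#1 (7.13% and 6.91% of all genes did). With shRBM10#2, 1 rose and 3 fell (12.0% and 13.9% of all genes did). EGFR fell with both shRNAs (log2 FC = -0.29 and -0.38, FDR = 0.0441 and 0.00758). KRT19 rose with shRBM10#1 (log2 FC = 0.28, FDR = 0.012) and fell with shRBM10#2 (log2 FC = -0.28, FDR = 0.00842). Of 12 markers of immune, endothelial and fibroblast cells, 8 stayed below 1 TPM in every library. The summed level of the 12 was 109 and 127 TPM in shScr, 94.9 and 95.3 in shRBM10#1, and 86.5 and 88.1 in shRBM10#2, of which CD68 made up 76.8 to 116. CD68 fell with both shRNAs (log2 FC = -0.33 and -0.42, FDR = 0.00411 and 0.000788), while CDH5 and PECAM1 rose with shRBM10#1 (log2 FC = 0.95 and 0.54, FDR = 0.000411 and 0.0459). The part of these markers in the results was not tested. PTPRC, which defines leukocytes, was at 0.02 to 0.05 TPM.

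A promoter element shared by many of the members was read from the reference. RefSeq promoters (GRCh38.p14, 250 bases before to 50 after the start site) were matched for 37 of the 42 genes, with SGOL1 listed as SGO1, which gave 47 promoters against 35116 promoters in all. The CHR letters TTTGAA (or TTCAAA, their reverse complement) and the variant TTTAAA, which reads the same on both strands, were searched. The windows of 30 bases below are written in the direction of the gene with the motif in capitals, and they belong to members that rose with shRBM10#2 (CDK1, CCNB2, CENPA, HMMR, PTTG1), fell with it (CKS2, KIF4A, CDC25B) or did not pass the test (CCNB1, PLK1, MKI67).
CDK1: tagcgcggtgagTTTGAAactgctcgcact
CCNB2: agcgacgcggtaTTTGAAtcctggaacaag
CENPA: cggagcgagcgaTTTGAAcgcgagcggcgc
HMMR: aatgtggggagaTTTGAAtttgaaaccggt
PTTG1: cgcgagttgtggTTTAAAccaggagtgcgc
CKS2: cgggctgtcggaTTCAAAtccggatcgttg
KIF4A: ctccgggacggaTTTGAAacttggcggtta
CDC25B: ttcagggcagccTTTAAAattccaagctgc
CCNB1: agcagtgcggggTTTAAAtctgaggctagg
PLK1: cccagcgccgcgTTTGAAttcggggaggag
MKI67: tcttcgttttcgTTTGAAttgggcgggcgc

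On the plus strand lay the windows of CDK1 at chr10:60778453-60778482, CCNB2 at chr15:59105105-59105134, CENPA at chr2:26786026-26786055, HMMR at chr5:163460592-163460621 and PTTG1 at chr5:160421814-160421843. So did those of CKS2 at chr9:89311154-89311183, KIF4A at chrX:70290058-70290087, CDC25B at chr20:3800068-3800097, CCNB1 at chr5:69167108-69167137 and PLK1 at chr16:23678848-23678877. The MKI67 window, on the minus strand, was chr10:128126435-128126464. The motif began 29 bases before the start site in CCNB2, PTTG1, CKS2, PLK1 and MKI67, 30 in CCNB1, 28 in HMMR, 34 in KIF4A, 18 in CENPA and 13 in CDK1, and 32 bases after it in CDC25B. The same letters thus stood near the start site of genes that rose, fell or did not pass the test.

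Over the set, TTTGAA or TTTAAA was present in the last 100 bases of 61.7% of the members' promoters (28 of 37 genes) and of 7.6% of all promoters. In the whole 300 bases these shares were 76.6% and 24%. TTTGAA alone was in the last 100 bases of 48.9% of the members' promoters and 4.6% of all. The CCAAT box (CCAAT or ATTGG), which binds NF-Y, was in 76.6% of the members' whole promoters and 34.6% of all, but in the last 100 bases in 25.5% and 10.7%. Per 100 promoters of the set, 29.79 CHR-type motifs began 26 to 50 bases before the start site, against 3.16 in all promoters, so the motif was densest just before the start. Of the 28 genes with the motif in the last 100 bases, 11 rose and 3 fell with shRBM10#2 relative to shScr (median log2 FC = 0.10, range -0.43 to 0.60), where 12.0% of all genes rose and 13.9% fell. Of the 9 matched genes without it, 0 rose and 0 fell at FDR below 0.05 (median 0.02, range -0.01 to 0.21). This grouping depends on the window. In CDC20, CENPE and KIF23, counted as without it, the motif began 65, 62 and 55 bases before the start site, just outside the last 100 bases. UBE2C, which rose with shRBM10#2, had no matched promoter and was in neither group. The difference between these groups of genes was not tested. A match is a description of letters and not a measured binding site.

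**Figure D1:**
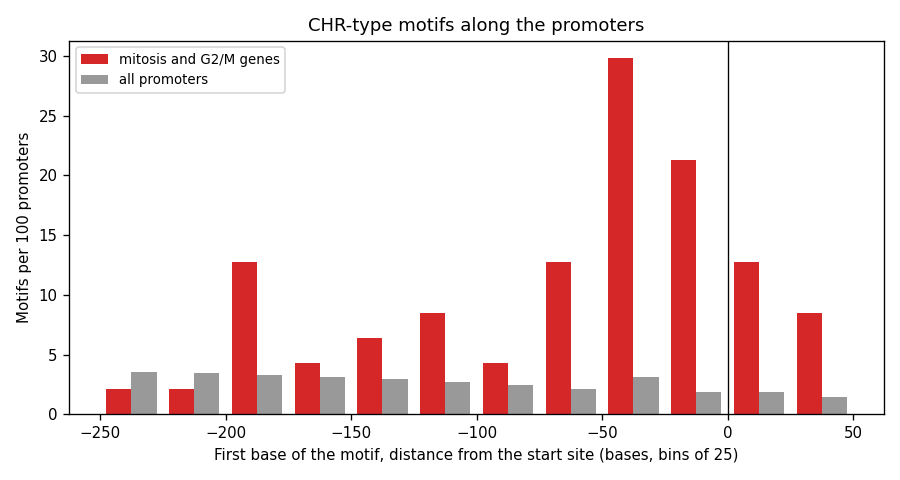
Position of CHR-type motifs (TTTGAA or TTTAAA, both strands) in RefSeq promoters. The x axis is the distance of the motif from the start site in bases, in bins of 25, and the y axis is motifs per 100 promoters, for the 47 promoters of the mitosis and G2/M genes (red) and all 35116 promoters (grey). The red bars peak at 29.79 between 50 and 26 bases before the start, where the grey bar is at 3.16.

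The set was abundant in PC-9 cells. Its members took 0.709% and 0.730% of all counts in shScr, 0.725% and 0.647% in shRBM10#1, and 0.774% and 0.754% in shRBM10#2. By this share both shRBM10#2 libraries were highest and replicate 2 of shRBM10#1 was lowest. By summed TPM, replicate 2 of shScr (5291.4) lay above replicate 2 of shRBM10#2 (5280.0) and below its replicate 1 (5398.3). Replicate 2 of shRBM10#1 was again lowest (4577.7). On the TPM scale, which allows levels to be compared between genes, the highest shScr means were CKS2 at 604 TPM, UBE2C at 571, CDC20 at 301, PTTG1 at 248 and CCNB1 at 245. CDK1 followed in 7th place at 202 TPM, PLK1 at 180 and TOP2A at 147. The lowest were KIF18A at 21.4 TPM, CENPE at 13.5 and SGOL1 at 8.51. Among the tested genes ranked by shScr TPM, the members spanned the percentiles 41.8 to 98.4. CKS2 at the top encodes a short CDK-binding protein and SGOL1 at the bottom the shugoshin that protects centromeric cohesin, and the kinases and cyclins lay between them.

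**Figure D2:**
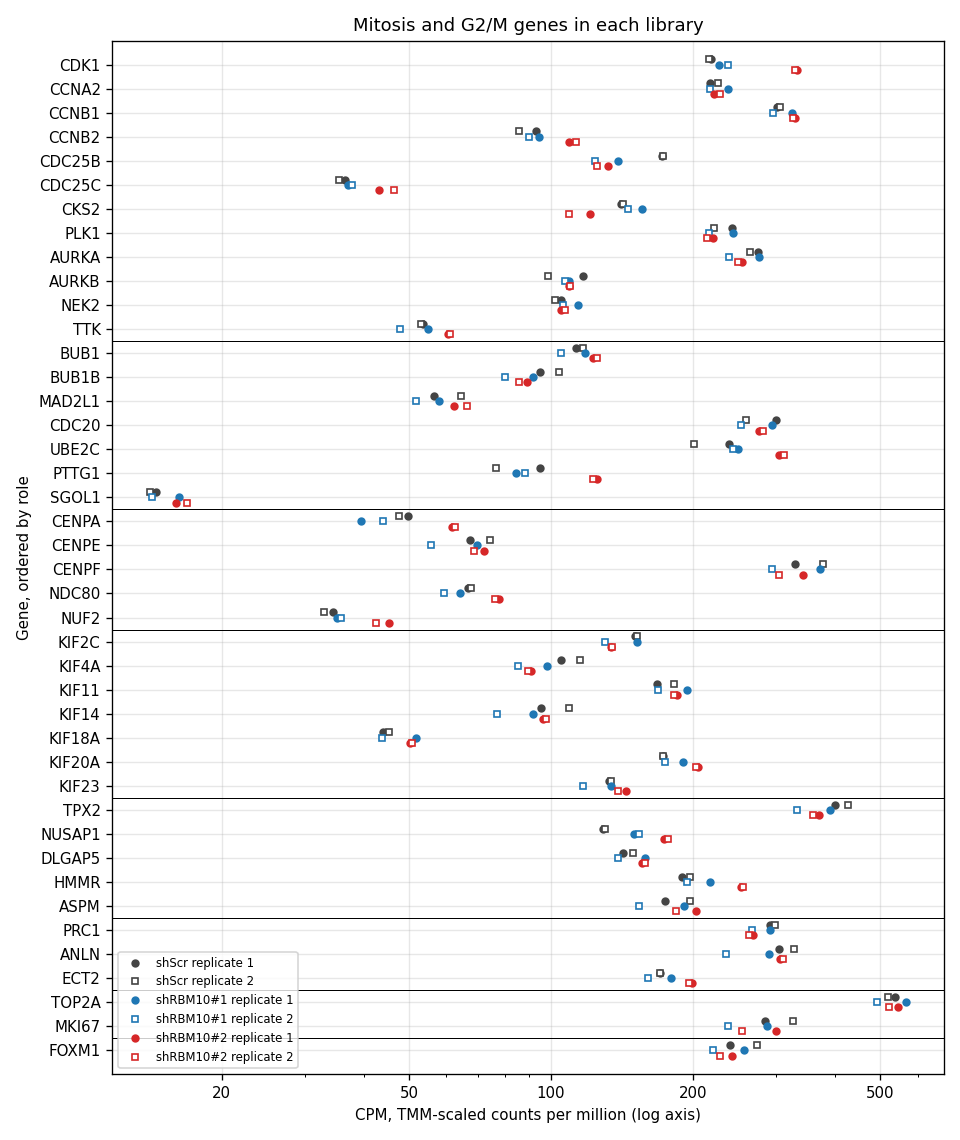
Level of each of the 42 genes in each library. The x axis is CPM scaled by TMM factors on a log axis, genes are ordered by role with lines between roles, colours mark the condition, and filled and open symbols mark replicates 1 and 2. For most genes the 6 points lie close together, while for CDK1 the shRBM10#2 points stand apart at 332 and 329 CPM and for CDC25B the shScr points at 172 and 173.

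With shRBM10#1, little of the set moved. NUSAP1 rose, CDC25B and KIF4A fell, and 39 of the 42 did not pass an FDR below 0.05. Thus 1 of 42 rose (2.38%) against 7.13% of all tested genes, and 2 of 42 fell (4.76%) against 6.91%, and both shares lay below the background. The members' median log2 FC was -0.02 (range -0.39 to 0.24) against 0.01 over all genes. Of the members, 41 of 42 differed by less than 0.3, as did 10779 of all 14217 genes tested. In bulk RNA, a change in the share of cells in G2 or M and a change in RNA per cell cannot be told apart. Non-overlapping libraries, in the upward direction, were found for 8 members (19.0%) against 27.9% of all genes, and in the downward direction for 9 (21.4%) against 25.7%. The count of 3 rested on single libraries, and the number of all genes called also moved when 1 library was left out. The members' median log2 FC was -0.111 without replicate 1 of shRBM10#1 and 0.049 without its replicate 2. The 3 conditions share 1 estimate of the spread in this test.

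With shRBM10#2, more of the set moved, and mostly upward. CDK1, CCNB2, CDC25C, UBE2C, PTTG1, CENPA, NDC80, NUF2, KIF20A, NUSAP1, HMMR and ECT2 rose, and CDC25B, CKS2 and KIF4A fell. The 12 that rose were 28.6% of the set against 12.0% of all tested genes, and the 3 that fell were 7.14% against 13.9%. The differences were small, with a median log2 FC of 0.06 (range -0.43 to 0.60) against 0.01 over all genes. In absolute log2 FC, 31 of 42 members stayed below 0.3, as did 10054 of all 14217 genes tested. Both shRBM10#2 libraries lay above both shScr libraries for 20 members (47.6%), against 33.6% of all genes, and below them for 9 (21.4%), against 33.0%. Fewer members and fewer of all genes passed without replicate 1 or replicate 2 of shRBM10#2. The members' median log2 FC was then 0.057 and 0.068. Removing the trend of each library with GC content left 14 calls (10 higher, 4 lower), where 2749 of 14217 genes passed. It turned the members' median to -0.05, so the upward median did not outlast that correction.

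No member reached an absolute log2 FC above 1. The count at FDR below 0.05 with that criterion was 0 of 42 for shRBM10#1 against shScr, where 1.88% of all genes passed, 0 for shRBM10#2 against shScr, where 1.3% passed, and 0 for shRBM10#2 against shRBM10#1, where 1.19% passed. At an unadjusted p under 0.05, and with no size criterion, 8, 20 and 18 members passed these comparisons (19.0%, 47.6% and 42.9%), against 28.5%, 37.9% and 38.1% of all genes. DESeq2 called 5, 14 and 14 members at FDR below 0.05 (11.9%, 33.3% and 33.3%), against 12.1%, 22.1% and 22.1% of all genes.

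**Figure D3:**
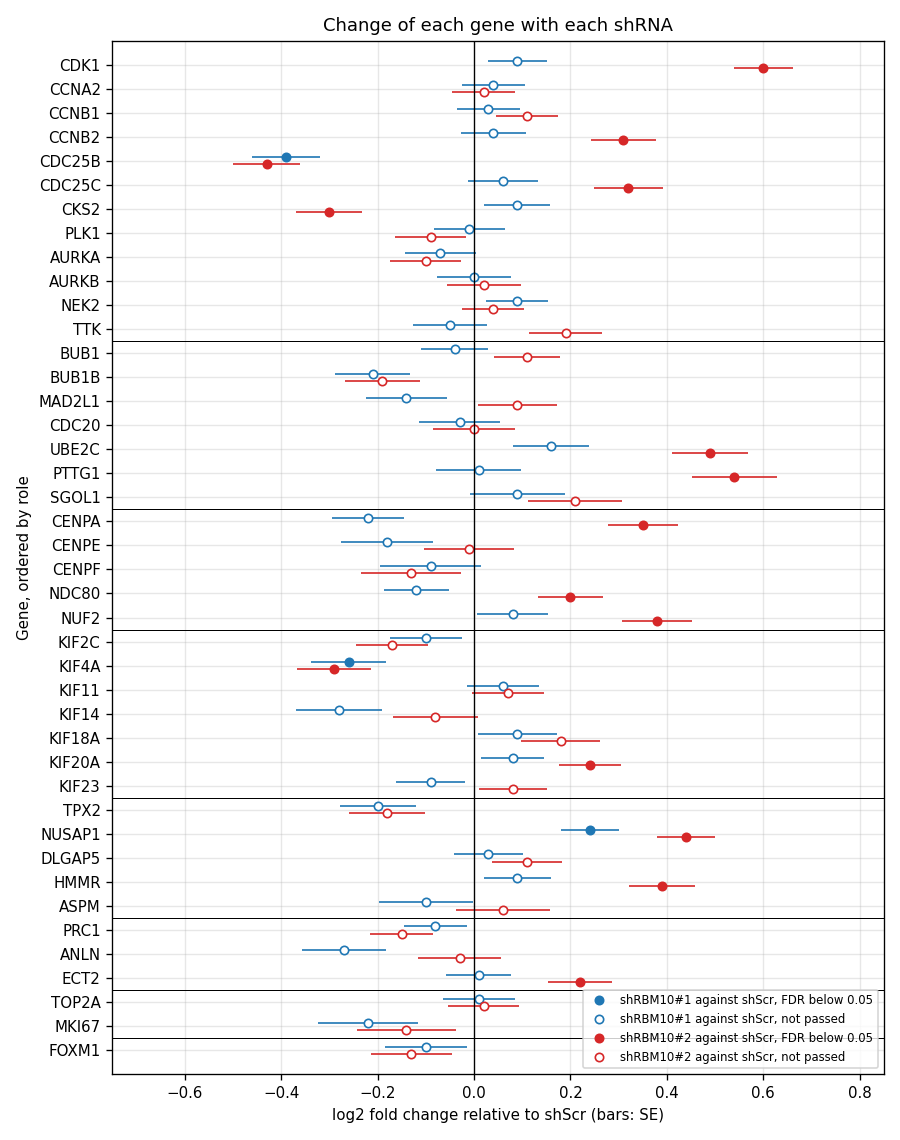
Difference of each gene between each shRNA and shScr. The x axis is the edgeR log2 FC with its SE as a bar, blue marks shRBM10#1 and red shRBM10#2, and filled points passed an FDR below 0.05. Blue has 3 filled points and red has 15, with CDK1 farthest to the right at 0.60 and CDC25B farthest to the left at -0.43.

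Among the 12 mitotic kinases and their partners, CDK1, CCNB2 and CDC25C rose and CDC25B and CKS2 fell with shRBM10#2, and CDC25B alone fell with shRBM10#1. CDK1, the kinase that drives entry into mitosis, was at 219 and 216 CPM in shScr, 227 and 237 in shRBM10#1, and 332 and 329 in shRBM10#2. Both shRBM10#2 libraries stood above all 4 others. The difference from shScr was 1.52-fold (log2 FC = 0.60, SE 0.0613, FDR = 9.23e-05), and the shRBM10#1 difference of 0.09 did not pass (FDR = 0.345). CCNB1, the main mitotic cyclin that activates CDK1, was at 302 and 307 CPM in shScr, 325 and 296 in shRBM10#1, and 329 and 326 in shRBM10#2, and its log2 FC of 0.11 with shRBM10#2 did not pass (FDR = 0.256). CCNB2, the related B-type cyclin, was at 92.9 and 85.5 CPM, 94.1 and 89.9, and 109 and 113, in the same order of conditions. It was highest in both shRBM10#2 libraries (log2 FC = 0.31, SE 0.0672, FDR = 0.00569). CCNA2, the A-type cyclin of S and G2 phase, was at 218 and 226 CPM, 238 and 218, and 222 and 228, with overlapping libraries and log2 FC of 0.04 (FDR = 0.767) and 0.02 (FDR = 0.860).

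The CDC25 phosphatases, which remove the inhibitory phosphates of CDKs, went in opposite directions with shRBM10#2. CDC25B was at 172 and 173 CPM in shScr, 139 and 124 in shRBM10#1, and 132 and 125 in shRBM10#2. All 4 RBM10 KD libraries lay below both shScr libraries, with a log2 FC of -0.39 for shRBM10#1 (SE 0.0701, FDR = 0.00261) and -0.43 for shRBM10#2 (SE 0.0700, FDR = 0.0013). CDC25C was at 36.5 and 35.4 CPM, 37.0 and 37.9, and 43.2 and 46.4, which put the shRBM10#2 libraries above the rest (log2 FC = 0.32, SE 0.0715, FDR = 0.00736). With shRBM10#1 its log2 FC of 0.06 did not pass (FDR = 0.64). CKS2, the small partner that docks phosphorylated substrates on CDKs, was at 141 and 142 CPM, 156 and 146, and 121 and 109. It was lowest with shRBM10#2 (log2 FC = -0.30, SE 0.0687, FDR = 0.00739) and did not pass with shRBM10#1 (0.09, FDR = 0.419). Without replicate 2 of shRBM10#2 the calls of CCNB2 (FDR = 0.0961), CDC25C (FDR = 0.128) and CKS2 (FDR = 0.162) were lost, and the call of CCNB2 was also lost without replicate 1. With the GC trend removed, the CDK1 log2 FC was 0.39 (FDR = 0.00253).

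The other mitotic kinases differed by less than the test could call against shScr. PLK1, which acts from centrosome maturation to cytokinesis, was at 242 and 222 CPM in shScr, 244 and 217 in shRBM10#1, and 221 and 214 in shRBM10#2 (log2 FC = -0.01 and -0.09, FDR = 0.954 and 0.385). AURKA, the centrosomal Aurora kinase, was at 275 and 265 CPM, 277 and 239, and 254 and 249 (log2 FC = -0.07 and -0.10, FDR = 0.600 and 0.348). For both genes the shRBM10#1 libraries overlapped shScr, and the shRBM10#2 libraries lay below both shScr libraries. TTK, the kinase that starts spindle checkpoint signalling, was at 53.5 and 52.9 CPM, 54.9 and 47.9, and 60.5 and 61.1, and its 0.19 with shRBM10#2 did not pass (FDR = 0.0777). AURKB, of the chromosomal passenger complex, and NEK2, which splits centrosomes, differed by 0.00 to 0.09 on the log2 scale with each shRNA.

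Of the 7 genes of the spindle checkpoint and anaphase onset, UBE2C and PTTG1 rose with shRBM10#2, none passed with shRBM10#1 by edgeR (1 at an unadjusted p under 0.05, BUB1B, FDR = 0.0931), and the other 5 did not pass with either shRNA. UBE2C, the E2 enzyme that begins ubiquitin chains for the anaphase-promoting complex, was at 239 and 201 CPM in shScr, 249 and 244 in shRBM10#1, and 305 and 313 in shRBM10#2. PTTG1, securin, which holds separase inactive until anaphase, was at 95.0 and 76.3 CPM, 84.3 and 88.0, and 125 and 123. For each, both shRBM10#2 libraries were above the other 4. The shRBM10#2 log2 FC was 0.49 for UBE2C (SE 0.0783, FDR = 0.00109) and 0.54 for PTTG1 (SE 0.0877, FDR = 0.00124), although in shScr replicate 2 lay below replicate 1 for both. The PTTG1 copies PTTG2 and PTTG3P were at 0 counts in all 6 libraries. BUB1, the checkpoint kinase at kinetochores, was at 113 and 117 CPM, 118 and 105, and 123 and 125 (log2 FC = -0.04 and 0.11, FDR = 0.768 and 0.262). CDC20, the activator of the anaphase-promoting complex that the checkpoint restrains, was at 300.0 and 259 CPM, 294 and 253, and 276 and 282, and its spread within shScr and shRBM10#1 exceeded any difference between means (FDR = 0.855 and 0.990). BUB1B, MAD2L1 and SGOL1 ranged from -0.21 to 0.21 on the log2 scale. With shRBM10#1 and shRBM10#2, BUB1B was at -0.21 and -0.19 (FDR = 0.0931 and 0.091), MAD2L1 at -0.14 and 0.09, and SGOL1 at 0.09 and 0.21.

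In the centromere and kinetochore group, CENPA, NDC80 and NUF2 rose with shRBM10#2, and the motor CENPE and the kinetochore corona protein CENPF did not pass. None of the 5 passed with shRBM10#1 by edgeR, while CENPA alone had an unadjusted p under 0.05. CENPA, the histone H3 variant that marks centromeres, was at 49.7 and 47.6 CPM in shScr, 39.5 and 44.0 in shRBM10#1, and 61.7 and 62.7 in shRBM10#2. Its shRBM10#1 libraries lay below both shScr libraries and its shRBM10#2 libraries above them, an order shared within the set by NDC80. The log2 FC of CENPA was -0.22 (SE 0.0740, FDR = 0.0667) for shRBM10#1 and 0.35 (SE 0.0726, FDR = 0.00441) for shRBM10#2. NDC80 and NUF2 form a dimer that binds microtubules. NUF2 was at 34.4 and 32.9 CPM, 35.1 and 35.9, and 45.3 and 42.5 (log2 FC = 0.38 with shRBM10#2, SE 0.0720, FDR = 0.00269). NDC80 was at 66.8 and 67.5 CPM, 64.1 and 59.4, and 77.7 and 76.2 (log2 FC = 0.20, SE 0.0667, FDR = 0.0467). The NDC80 call was lost in 11 of 16 alternatives, among them any shScr or shRBM10#2 library left out (largest FDR = 0.277), and its log2 FC was 0.05 with the GC trend removed, where that of NUF2 was 0.23. The calls of CENPA and NUF2 were lost without 1 shRBM10#2 library, replicate 2 for CENPA (FDR = 0.066) and replicate 1 for NUF2 (FDR = 0.0572).

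Among the 7 kinesin motors, KIF4A fell with both shRNAs and KIF20A rose with shRBM10#2. KIF4A, a chromosome-bound motor that works on condensation and the central spindle, was at 105 and 115 CPM in shScr, 98.2 and 85.1 in shRBM10#1, and 90.6 and 89.5 in shRBM10#2. All 4 RBM10 KD libraries lay below shScr, by a log2 FC of -0.26 (SE 0.0774, FDR = 0.0382) and -0.29 (SE 0.0772, FDR = 0.0166). Its copy KIF4B held at most 0.238% as many counts. KIF20A, which carries the passenger complex to the midzone, was at 173 and 173 CPM, 191 and 175, and 205 and 203, with the shRBM10#2 libraries highest (log2 FC = 0.24, SE 0.0646, FDR = 0.0172). The other motors, KIF2C, KIF11, KIF14, KIF18A and KIF23, ranged from -0.28 to 0.18 and did not pass. The KIF4A call with shRBM10#1 was lost in 10 of 16 alternatives, among them any 1 library left out other than replicate 1 of shRBM10#1 (largest FDR = 0.236), and without replicate 2 of shRBM10#1 its log2 FC was -0.16 (FDR = 0.21). With shRBM10#2 it was lost without replicate 2 of shScr (FDR = 0.115) or without replicate 1 (FDR = 0.111) or 2 (FDR = 0.143) of shRBM10#2, and that of KIF20A without any 1 of the shScr or shRBM10#2 libraries (largest FDR = 0.157).

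The 5 spindle assembly genes held NUSAP1, the only member that rose with both shRNAs. NUSAP1, a protein that bundles spindle microtubules near chromosomes, was at 129 and 130.0 CPM in shScr, 150.0 and 154 in shRBM10#1, and 174 and 177 in shRBM10#2. The 3 conditions did not overlap and ran upward from shScr to shRBM10#2, with a log2 FC of 0.24 for shRBM10#1 (SE 0.0605, FDR = 0.0212) and 0.44 for shRBM10#2 (SE 0.0604, FDR = 0.00053). These were 0.26 (FDR = 0.0127) and 0.32 (FDR = 0.00428) with the GC trend removed, where NUSAP1 no longer passed between the shRNAs. HMMR, which organizes spindle poles, was at 190.0 and 197 CPM, 218 and 194, and 253 and 255 (log2 FC = 0.39 with shRBM10#2, SE 0.0692, FDR = 0.00204), and this was 0.23 with the GC trend removed (FDR = 0.0412). TPX2, which activates AURKA on the spindle, DLGAP5 and ASPM did not pass, with log2 FC from -0.20 to 0.11. With shRBM10#1 and shRBM10#2, TPX2 was at -0.20 and -0.18 (FDR = 0.123 and 0.113), DLGAP5 at 0.03 and 0.11, and ASPM at -0.10 and 0.06. The NUSAP1 call with shRBM10#1 was lost without any 1 library other than replicate 1 of shRBM10#1 (largest FDR = 0.0816).

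In the midzone and cytokinesis group, ECT2, which activates RhoA at the cleavage furrow, was at 170.0 and 170.0 CPM in shScr, 180.0 and 161 in shRBM10#1, and 199 and 196 in shRBM10#2. It rose with shRBM10#2 by a log2 FC of 0.22 (SE 0.0672, FDR = 0.0309), which was lost without any 1 of the shScr or shRBM10#2 libraries (largest FDR = 0.217) and was 0.02 with the GC trend removed (FDR = 0.872). PRC1, which bundles the midzone, and ANLN, the anillin scaffold of the furrow, did not pass. PRC1 was at -0.08 with shRBM10#1 and -0.15 with shRBM10#2 on the log2 scale (FDR = 0.435 and 0.099). ANLN missed the threshold with shRBM10#1 (log2 FC = -0.27, FDR = 0.0575).

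Common proliferation markers and the set's own transcription factor did not pass. MKI67, the Ki-67 antigen, was at 285 and 327 CPM in shScr, 288 and 237 in shRBM10#1, and 301 and 254 in shRBM10#2, with a log2 FC of -0.22 (SE 0.103, FDR = 0.181) and -0.14 (SE 0.103, FDR = 0.348). TOP2A, the topoisomerase that untangles sister chromatids, was at 536 and 518 CPM, 567 and 491, and 545 and 523 (log2 FC = 0.01 and 0.02, FDR = 0.974 and 0.876). FOXM1, the activator of the late part of the program, was at 240.0 and 274 CPM, 257 and 221, and 242 and 228 (log2 FC = -0.10 and -0.13, FDR = 0.457 and 0.289). For MKI67 and FOXM1 the libraries of a condition differed from each other by about as much as the conditions did, and for TOP2A by more.

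The shRNAs were then set against each other, which does not use the shScr libraries for the difference itself. With shRBM10#2 relative to shRBM10#1, CDK1, CCNB2, CDC25C, TTK, UBE2C, PTTG1, CENPA, NDC80, NUF2, NUSAP1, HMMR and ECT2 were higher and CKS2 was lower. These were 12 of 42 (28.6%) against 11.0% of all genes, and 1 of 42 (2.38%) against 14.5%. The median log2 difference of the members was 0.10 against 0.01 over all genes. The largest were CENPA at 0.57 (SE 0.0731, FDR = 0.00034), PTTG1 at 0.53 (SE 0.0876, FDR = 0.00135), CDK1 at 0.51 (SE 0.0611, FDR = 0.000236) and CKS2 at -0.39 (SE 0.0686, FDR = 0.00182). CDC25B and KIF4A, called as lower with both shRNAs, differed between them by -0.03 (FDR = 0.763) and -0.02 (FDR = 0.848). Without replicate 1 of shRBM10#2 the count was 4 (CDK1, PTTG1, CENPA and CKS2) and without replicate 2 it was 3 (CDK1, PTTG1 and CENPA). It fell from 13 to 5 with the GC trend removed, where CDK1 (0.26, FDR = 0.0191), UBE2C, PTTG1, CENPA and CKS2 still passed. The TTK difference of 0.24 (FDR = 0.0325) and the ECT2 difference of 0.21 (FDR = 0.0359) were 0.15 (FDR = 0.175) and 0.13 (FDR = 0.155) without replicate 2 of shRBM10#1, and without its replicate 1 the calls of CDC25C (FDR = 0.0568) and NUSAP1 (FDR = 0.058) were lost.

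**Figure D4:**
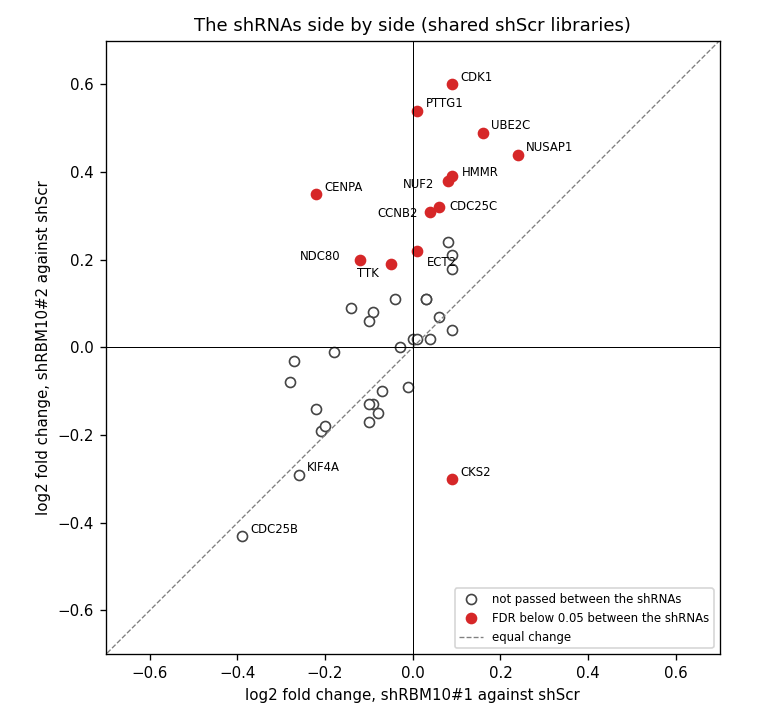
Log2 FC of each of the 42 genes with shRBM10#1 (x axis) and shRBM10#2 (y axis), each relative to the same 2 shScr libraries, so that the axes are not independent. Red points passed an FDR below 0.05 in the direct comparison of the shRNAs and the dashed line marks equal change. CENPA lies at -0.22 and 0.35, CDK1 at 0.09 and 0.60, CKS2 at 0.09 and -0.30, and CDC25B and KIF4A lie near the line below 0.

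With the RBM10 KD libraries as 1 group of 4 against shScr, CDC25B fell (log2 FC = -0.41, SE 0.0783, FDR = 0.0433) and no other member passed by edgeR. That was 1 of 42 lower (2.38%) against 1.08% of all genes, and 0 of 42 higher against 0.542%, with 6 members at an unadjusted p under 0.05 (14.3%, against 17.2% of all genes) and 2 called by DESeq2 (4.76%, against 5.05%). In this fit the difference between the shRNAs counts as spread, and RBM10 itself did not pass (log2 FC = -0.99, SE 0.306, FDR = 0.146). With 1 coefficient per condition and the mean of both shRNAs tested, 6 members were higher (14.3%, against 8.51% of all genes) and 2 lower (4.76%, against 9.85%). The CDC25B call was lost when any 1 library other than replicate 1 of shRBM10#1 was left out.

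Read as a score, the set moved by little, and 1 condition was divided. Relative to the shScr mean, the median member stood at 0.05 on the log2 scale in replicate 1 of shRBM10#1 and at -0.11 in replicate 2, and at 0.07 and 0.06 in the shRBM10#2 libraries, while the median over all genes was 0.01 in each of these 4. Replicate 2 was below replicate 1 for 36 of 42 members in shRBM10#1 (median -0.17), for 16 in shScr (median 0.01) and for 23 in shRBM10#2 (median -0.01), against 49.7%, 49.5% and 49.9% of all genes. The median difference between the shRNAs was 0.207 without replicate 1 of shRBM10#1 and 0.009 without replicate 2. So the distance of the set between the shRNAs depended on which shRBM10#1 library was read.

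The spread between replicates followed transcript length. Across the 42 genes, Spearman's rho between the length of the leading isoform and replicate 2 over replicate 1 was 0.71 in shScr, -0.77 in shRBM10#1 and -0.43 in shRBM10#2, where the same over 14217 genes was 0.35, -0.27 and -0.14. These are descriptions across genes of the same libraries. MKI67, CENPF and ASPM, the longest transcripts of the set, were higher in replicate 2 of shScr and lower in replicate 2 of both shRNAs. The mean fragment length implied by the effective lengths was 230.2 nt in replicate 2 of shScr and 263.9 to 280.2 nt in the other 5 libraries. Among the 21 members shorter than 3001.5 nt, 9 rose and 2 fell with shRBM10#2 (median log2 FC = 0.11), where 12.3% of all genes of such lengths rose and 11.7% fell. Among the 21 longer ones 3 rose and 1 fell (median 0.02), against 11.7% and 16.3% of all longer genes. For the members' log2 FC, rho with length was -0.43 with shRBM10#1 and -0.39 with shRBM10#2 (-0.12 and -0.08 over all genes), and rho with GC content was -0.16 and -0.30 (0.12 and -0.36 over the 13536 genes with a GC value). Between shRBM10#2 and shRBM10#1, rho with length was -0.22 (0.01 over all genes). For that comparison rho with GC content was -0.34 (-0.47 over the genes with a GC value). The part of length and GC content in these differences was not tested beyond the corrections given.

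**Figure D5:**
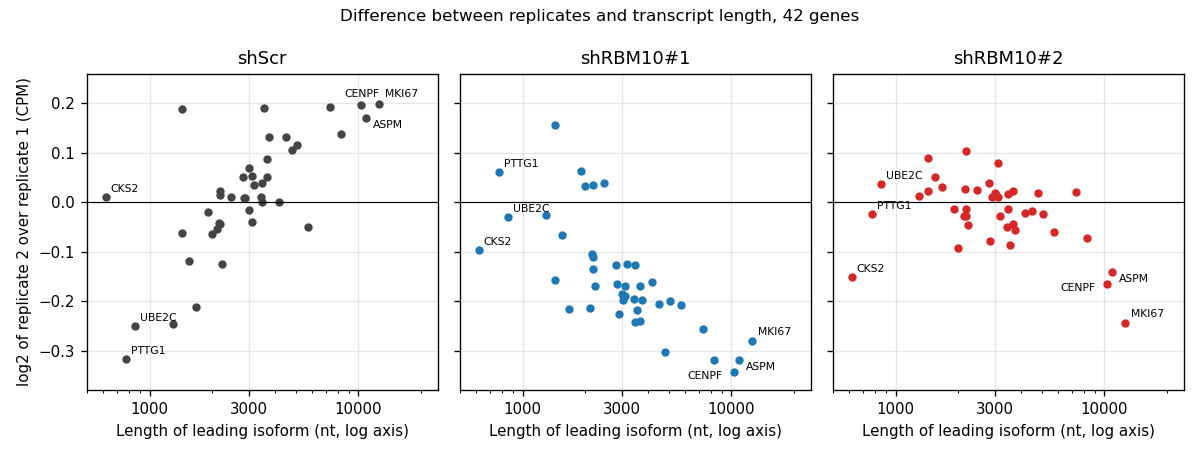
Difference between the 2 replicates of each condition against transcript length for the 42 genes. The x axis is the length of the leading isoform in nt on a log axis and the y axis is the log2 of replicate 2 over replicate 1 in CPM. Long transcripts lie above 0 in shScr and below 0 in shRBM10#1 (rho 0.71 and -0.77), and shRBM10#1 holds 36 points below 0.

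Isoform usage was a readout that the choice of genes did not use, and RBM10 is a splicing factor. Of the members, 25 had more than 1 isoform above the filter. With edgeR's diffSpliceDGE, 0 of 25 passed with shRBM10#1 (0.25% of 6405 genes did) and 0 of 25 with shRBM10#2 (1.9% did), with 2 and 3 members at an unadjusted p under 0.05. ANLN was among them for both (FDR = 0.601 and 0.246). Its isoform NM_018685 made up 80.25% and 80.83% of the gene in shScr, 85.2% and 83.77% in shRBM10#1, and 85.69% and 85.7% in shRBM10#2. HMMR was the other with shRBM10#1 (FDR = 0.647), and KIF2C (FDR = 0.273) and PRC1 (FDR = 0.475) were the others with shRBM10#2. The PRC1 isoform NM_199413 was at 58.28% and 58.58% in shScr, 62.45% and 58.71% in shRBM10#1, and 50.77% and 53.53% in shRBM10#2, and KIF2C NM_006845 at 82.13% and 79.39%, 85.03% and 84.81%, and 86.36% and 89.2%. With limma's diffSplice, PRC1 (FDR = 0.0238) and KIF2C (FDR = 0.032) passed with shRBM10#2, which is 2 of 25 where 6.4% of 6405 genes passed, and 0 passed with shRBM10#1, where 0.187% did. A count of 0 does not show that usage was the same.

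Further genes of the pathway were measured in the same fit. Of 71 other mitosis and G2/M genes, 1 rose and 3 fell with shRBM10#1 (median log2 FC = -0.03), and 12 rose and 4 fell with shRBM10#2 (median 0.05). These were 1.41% and 4.23% with shRBM10#1, below the 7.13% and 6.91% of all genes, and 16.9% and 5.63% with shRBM10#2, where all genes gave 12.0% and 13.9%. PBK, a mitotic kinase, was at 56.9 and 57.7 CPM in shScr, 55.0 and 54.4 in shRBM10#1, and 76.9 and 79.4 in shRBM10#2 (log2 FC = 0.45, FDR = 0.00068). SKA1, which couples kinetochores to microtubules, was at 20.7 and 19.5 CPM, 15.1 and 14.6, and 21.9 and 22.3. Like CENPA, it was lowest with shRBM10#1 (log2 FC = -0.44, FDR = 0.00461), and between shRBM10#2 and shRBM10#1 the log2 FC was 0.58 (FDR = 0.000729). DIAPH3, a formin, fell with both (log2 FC = -0.37 and -0.36, FDR = 0.00551 and 0.00495), and CIT, the citron kinase of the midbody, fell with shRBM10#2 (-0.53, FDR = 0.00223).

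Of 17 regulators of the program, 0 rose and 1 fell with shRBM10#1, and 5 rose (29.4%) and 1 fell (5.88%) with shRBM10#2, where 7.13% and 6.91% of all genes rose and fell with shRBM10#1 and 12.0% and 13.9% with shRBM10#2. CDKN1A, the CDK inhibitor p21, was the regulator that fell with both. It was at 34.6 and 36.4 CPM in shScr, 16.3 and 21.2 in shRBM10#1, and 22.2 and 19.3 in shRBM10#2, so all 4 RBM10 KD libraries lay below shScr (log2 FC = -0.92 and -0.77, FDR = 0.000218 and 0.000643). LIN9, a subunit of the MuvB core, was at 24.6 and 25 CPM, 24.6 and 24.1, and 31.6 and 33.4 (log2 FC = 0.39 with shRBM10#2, FDR = 0.00308). NFYB, a subunit of the CCAAT-binding NF-Y, rose with shRBM10#2 by 0.43 (FDR = 0.00223). Of 16 anaphase-promoting complex subunits and activators, 0 passed with shRBM10#1 by edgeR (1 at an unadjusted p under 0.05), and 3 rose and 3 fell with shRBM10#2 (18.8% each way, against the same 12.0% and 13.9%). ANAPC2, the cullin subunit, was at 56.9 and 53.3 CPM, 60.7 and 51.9, and 36.0 and 35.8, which put the shRBM10#2 libraries lowest (log2 FC = -0.62, FDR = 0.000465).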

How the data were processed

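Total RNA of 6 libraries was sequenced by the study, and the submitters' processing notes name STAR 2.4, RSEM 1.2.29, edgeR and the genome build hg19. For each isoform the authors deposited the RSEM expected count, an estimated count that splits shared reads, the TPM, and the isoform's percent of its gene, all made before deposit. The authors also deposited effective lengths in nt, which enter 1 alternative. FPKM was not used here. Whether counting used strand is not given in the sources used here.

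Expected counts were summed per gene symbol, rounded and tested with the quasi-likelihood test of edgeR 4.0.16 in R 4.3.3, with TMM scaling, the filterByExpr filter by condition, 1 coefficient per condition and Benjamini-Hochberg adjustment over 14217 genes. A gene was called at an FDR below 0.05. RBM10 KD was also tested as 1 group. SE was the absolute log2 FC divided by the root of the F statistic. Isoform usage was tested with diffSpliceDGE (Simes p per gene). Tests were two-sided. Alternatives were DESeq2 1.42.0, its size factors, other count filters, a replicate block, an effective length offset, a size criterion, each library left out, limma 3.58.1 diffSplice and, chosen after seeing the data, loess removal of length and GC trends (span 0.3). Promoters came from a RefSeq table of GRCh38.p14. That build differs from hg19, and no coordinates were taken from the deposited files. Python 3.11.15 and matplotlib 3.10.9 made the tables and figures.

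Differences between libraries of the same condition exceeded counting noise (chi-square per degree of freedom 9.78 for shScr, 12.5 for shRBM10#1 and 3.24 for shRBM10#2), so each library was counted as 1 sample. Totals of 31953729 to 37557507 expected counts put each member well above the filter. The 3 pairwise gene tests and the edgeR isoform usage tests were checked on simulated counts.

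The 42 members and the further lists were chosen with earlier results of these data known. Values in every library were printed for CDK1, CCNB1, PLK1, AURKA, BUB1, TOP2A, MKI67, FOXM1, CDC20 and CCNA2 and for members called in any of the 3 comparisons of conditions, and of each further list at most the 2 genes with the smallest FDR in each direction and comparison were named. Isoforms of ANLN, KIF2C and PRC1 were named after their values were seen.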

Additional observations from a re-analysis of the deposited data

Results flagged for a closer look

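For 13 members the difference between shRBM10#2 and shRBM10#1 passed its own test (edgeR quasi-likelihood test, FDR below 0.05), which is also the difference of their changes from the shared shScr libraries. The log2 FC was 0.57 for CENPA, 0.53 for PTTG1, 0.51 for CDK1, 0.33 for UBE2C, 0.32 for NDC80, 0.31 for NUF2, 0.30 for HMMR, 0.27 for CCNB2, 0.26 for CDC25C, 0.24 for TTK, 0.21 for ECT2, 0.20 for NUSAP1 and -0.39 for CKS2. RBM10 itself was lower with shRBM10#2 than with shRBM10#1 (log2 FC = -1.11). Its part in these differences was not tested, and with 2 shRNAs the depth of knockdown and the shRNA sequence cannot be told apart.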

How the results depend on the processing

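The main count of members called was 3 with shRBM10#1, 15 with shRBM10#2, 13 between the shRNAs and 1 for both as a group. With shRBM10#1 it was 5 with DESeq2, 9 with no filter, 5 where each library needed 10 counts, 1 with only the conditions compared and 6 with the length trend removed, and 1 to 11 with 1 library left out. With shRBM10#2 it was 7 to 21 with 1 library left out. Between the shRNAs it was 3 to 19 with 1 library left out and 5 with the GC trend removed, where the ECT2 difference was -0.02 (FDR = 0.876). For both as a group it was 2 with DESeq2, 8 with 1 coefficient per condition and 0 to 1 with 1 library left out. The size criterion left 0 in each of these 4. Usage calls with shRBM10#2 were 2 with limma diffSplice. Of all genes, 1996 of 14217 were called for their totals with shRBM10#1 in the main test and 1727 with DESeq2. The number was 2589 of 19208 with no filter and 2013 of 13330 where each library needed 10 counts. It was 1377 of 13953 with only the conditions compared and 2519 of 14217 with the length trend removed. In each pairwise comparison the number of all genes called also moved with 1 library left out. The cause of these shifts was not tested.

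No label says whether the replicate numbers pair the libraries, and 2 pairs in each comparison cannot decide it. Same-numbered deviations correlated at -0.00383, -0.0193 and -0.0136 over 14217 genes. Over the 42 members these were -0.617, -0.358 and 0.377. With the replicate block, 2, 14, 11 and 0 members were called in the 4 comparisons and 0 changed in usage with either shRNA, and with the effective length offset and the block 1, 12, 9 and 0.

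The median log2 FC of the members with shRBM10#2 was 0.063, and -0.047 with the GC trend removed. Of 31 calls of single genes, 10 held under all 16 alternatives and 18 under those that left out no library, and of 496 repeats 409 kept the call, 86 lost it and 1 reversed. With 2 libraries a condition and log2 FC mostly below 0.3, a missed threshold does not show that a gene did not differ. The least abundant member, SGOL1, was at 14.1 CPM or more in every library.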

Other observations

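The E2F and DNA replication genes, which peak earlier in the cycle than the mitosis genes, were also measured. Of 45, 1 rose and 1 fell with shRBM10#1 (median log2 FC = 0.06), and 20 rose and 3 fell with shRBM10#2 (median 0.21), where 12.0% of all genes rose and 13.9% fell (7.13% and 6.91% with shRBM10#1). TYMS, thymidylate synthase, was at 81.7 and 79.7 CPM in shScr, 88.9 and 92.5 in shRBM10#1, and 121 and 121 in shRBM10#2 (log2 FC = 0.59, FDR = 0.000117). CCNE2, the cyclin of S phase entry, was at 16.6 and 20.4 CPM, 18.4 and 20.8, and 31.3 and 30.0 (log2 FC = 0.73, FDR = 0.000598). For both genes the shRBM10#2 libraries were above the other 4. TK1, thymidine kinase, and MCM7, a subunit of the replicative helicase, went the other way with shRBM10#2 (log2 FC = -0.24 and -0.25, FDR = 0.0118 and 0.0133). UNG, a uracil-DNA glycosylase, rose with shRBM10#1 (log2 FC = 0.49, FDR = 0.000511). PCNA, the sliding clamp, was at 280.0 and 289 CPM in shScr, 274 and 300.0 in shRBM10#1, and 391 and 380.0 in shRBM10#2, and differed between the shRNAs by a log2 FC of 0.42 (FDR = 0.000976).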
